A study of Mus musculus with 2 samples.

Results

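The macrophage and leukocyte genes described here are a named list of 44 gene symbols that mark macrophages and other white blood cells, of which 43 were found among the 30723 genes of both tables. The symbol not found, Spi1, names the same gene as Sfpi1, the older symbol for the transcription factor PU.1, so every listed gene was present. RNA came from the mandibular prominence of the mouse embryo, the facial swelling that gives rise to the lower jaw and tongue. Prominences of 10 control embryos were pooled into 1 RNA-seq library, and those of 10 Kif3a f/f;Wnt1-Cre embryos into another, both labelled E11.5 (embryonic day) and kept on a mixed (CD1) background. In the mutants the floxed Kif3a gene, which encodes a kinesin subunit needed to build the primary cilium, is removed by a Cre recombinase driven in neural crest and dorsal neural tissue; the control is labelled only as control, with no alleles named in the labels. With 1 library per group no replicate error exists, so no difference below was tested, and intervals cover counting error only.

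Macrophages are the main white blood cells of the early embryo. They arise from yolk sac and later from liver progenitors, enter tissues through the blood, depend on the growth factor receptor CSF1R and the transcription factor PU.1, and clear dying cells. They are not of neural crest origin, whereas most of the mesenchyme of the mandibular prominence is. In a pooled tissue library, fewer cells of a type and less RNA per cell cannot be told apart.

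Levels are FPKM, the number of sequenced fragments scaled to the transcript's length and to the library's size, summed over the transcripts of a gene. All 12 macrophage markers (Csf1r, Emr1, C1qa, C1qb, C1qc, Sfpi1, Ptprc, Cx3cr1, Fcgr1, Aif1, Mrc1 and Cd68) were covered by at least 20 fragments over both libraries. Their summed level was 18.7 FPKM in the control library and 14.3 FPKM in the mutant library. Individual markers lay between 0.270 and 3.82 FPKM in the control and between 0.263 and 3.47 FPKM in the mutant, low levels in both libraries.

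Of the 43 genes, 19 had a mean level of at least 1 FPKM and 24 lay below it. Only Pf4, Apoe, Dab2, Coro1a and Lcp1 exceeded 5 FPKM in the control library. The median level of the 43 genes was 0.963 FPKM in the control and 0.797 FPKM in the mutant. Because many levels were low, ratios were described for the 37 genes with at least 20 fragments over both libraries; Fcgr2b, Cd163, Msr1, Timd4, Gpnmb and Lyz1 had fewer.

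Most of the 37 genes had lower levels in the mutant library, and by more than the typical gene did. FPKM was lower in the mutant for 33 of 37, against 65.5% of all genes with that many fragments, and the exceptions were Cd68, Ptprc, Ly86 and Alox5ap. This count falls to 20 of 37 when both libraries are scaled to a common FPKM total, which shifts the median of all genes from −0.14 to 0.45 on the log2 scale, so members are also given relative to the median gene. At least a 1.5-fold lower level was found for 20 of 37 (54.1%), against 11.7% of 14809 genes. None of the 37 was 1.5-fold higher, against 7.18% of all genes. The median log2 ratio of mutant to control FPKM was −0.67 for the 37 genes, a 1.59-fold lower level, and −0.14 for all genes. Relative to that median gene, 31 of 37 lay below, where by construction as many genes lie below as above, and scaling does not alter this count.

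Counting error was large for many of these genes. The 95% counting interval of the ratio lay wholly below the median gene for 18 of 37, against 27.1% of all genes, and wholly above it for Cd68 alone, against 29.4% of all genes. On the log2(FPKM + 1) scale, which damps low levels, 1 of the 19 genes with a mean of at least 1 FPKM was 2-fold lower (Pf4), against 1.36% of 12259 genes, and none was 2-fold higher, against 0.767%. The median on that scale was −0.59 for the 19 genes and −0.13 for all genes.

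**Figure D1:**
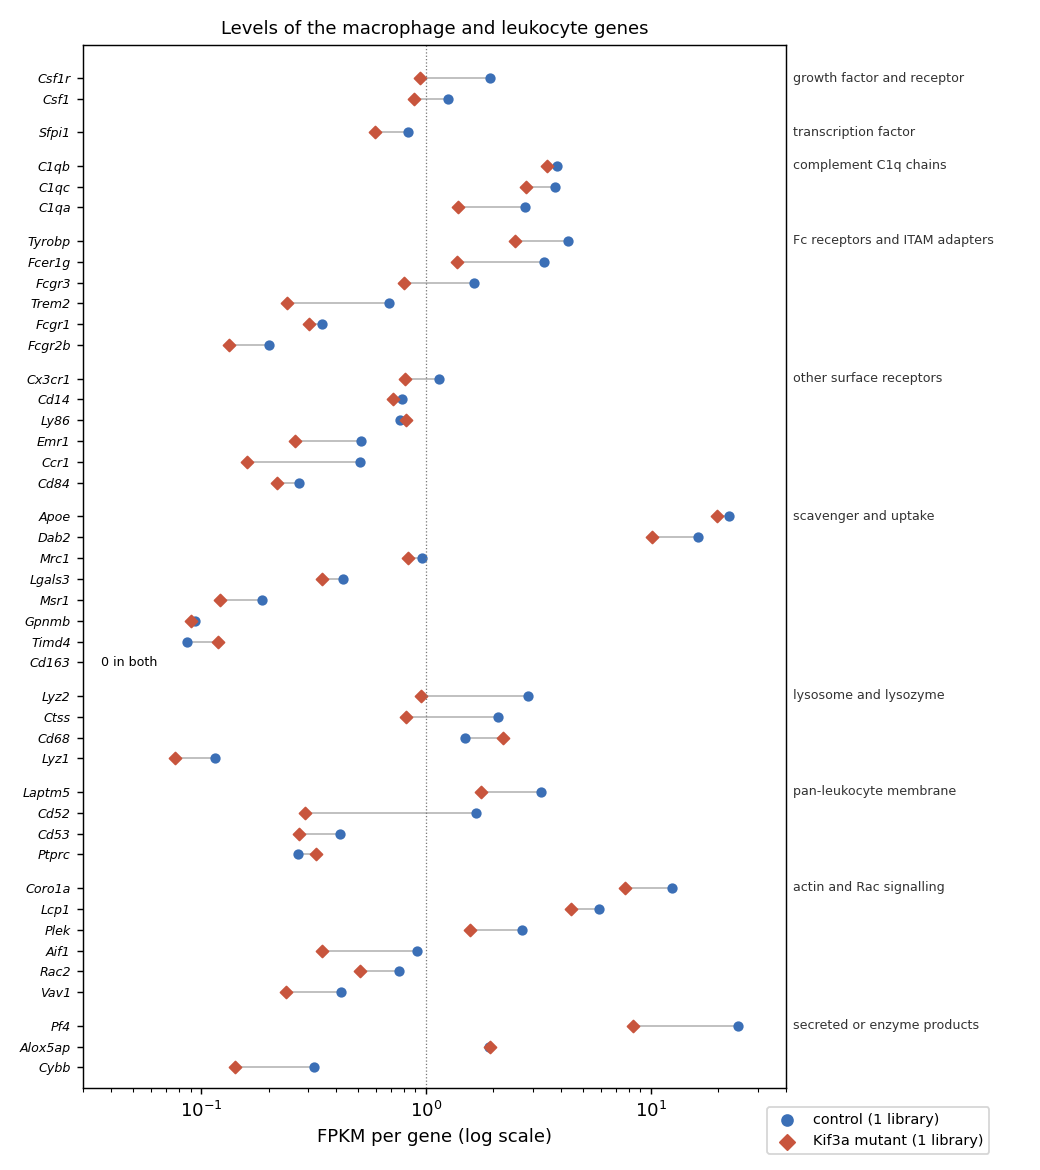
FPKM of each of the 43 genes in the control library (circles) and the Kif3a mutant library (diamonds) on a log axis, grouped by role, with a dotted line at 1 FPKM. Most diamonds lie left of their circles, from Pf4 at 24.6 and 8.34 FPKM down to genes under 0.2 FPKM, and Cd163 is at 0 in both.

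Many myeloid promoters carry a purine-rich element with the core GGAA that is bound by PU.1, whose gene Sfpi1 is itself in the list. RefSeq promoter windows (GRCm38.p6, from 250 bases before to 50 bases after the annotated start) were found for 33 of the 43 genes. The letters GAGGAAGT, searched on both strands, occurred in 5 of the 33 windows (15.2%) and in 887 of 27025 windows of all genes (3.28%). The 5 genes were C1qc, Cd53, Ctss, Pf4 and Vav1. The shorter GAGGAA, which the longer motif contains, occurred in 20 of 33 windows (60.6%) and in 28.3% of all windows. A match describes the letters and is neither a bound site nor a cause of any level.

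Shown are 4 of the 5 windows, those whose genes belong to different roles below and in which the match lies close to the transcription start, which follows base 250. Each is written 5′ to 3′ on the gene's strand, with the match in capitals; the capitals read GAGGAAGT in Vav1 and its reverse complement in the others. Counted from the 5′ end of the window, the match begins at base 249 in Ctss (chr3:95526536-95526835, plus strand), at base 241 in Pf4 (chr5:90772185-90772484, plus strand), at base 240 in Vav1 (chr17:57278850-57279149, plus strand) and at base 257 in Cd53 (chr3:106790100-106790399, minus strand).
Ctss: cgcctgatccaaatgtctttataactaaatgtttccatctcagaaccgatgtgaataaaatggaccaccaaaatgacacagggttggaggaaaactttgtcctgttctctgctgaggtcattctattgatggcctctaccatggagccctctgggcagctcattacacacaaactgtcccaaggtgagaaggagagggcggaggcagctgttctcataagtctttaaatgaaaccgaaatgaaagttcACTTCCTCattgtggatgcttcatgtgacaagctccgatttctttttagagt
Pf4: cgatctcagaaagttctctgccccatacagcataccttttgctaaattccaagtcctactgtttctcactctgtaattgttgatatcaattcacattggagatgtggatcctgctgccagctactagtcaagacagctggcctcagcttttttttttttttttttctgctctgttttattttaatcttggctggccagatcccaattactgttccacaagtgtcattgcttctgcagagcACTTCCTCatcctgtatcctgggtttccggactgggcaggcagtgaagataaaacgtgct
Vav1: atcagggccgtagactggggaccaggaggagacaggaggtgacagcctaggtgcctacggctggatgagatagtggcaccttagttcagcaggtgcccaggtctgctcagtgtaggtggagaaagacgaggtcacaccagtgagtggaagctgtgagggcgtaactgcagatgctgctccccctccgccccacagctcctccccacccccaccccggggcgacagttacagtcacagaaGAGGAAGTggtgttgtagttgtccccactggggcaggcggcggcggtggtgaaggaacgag
Cd53: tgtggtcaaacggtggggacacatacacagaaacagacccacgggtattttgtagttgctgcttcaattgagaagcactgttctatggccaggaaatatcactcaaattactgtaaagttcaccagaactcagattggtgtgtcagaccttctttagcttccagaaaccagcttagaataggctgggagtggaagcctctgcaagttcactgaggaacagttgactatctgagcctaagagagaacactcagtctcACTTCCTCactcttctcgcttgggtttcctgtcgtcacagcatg
All 5 genes with a match had lower levels in the mutant library, as did 33 of all 37 genes with at least 20 fragments. The counting intervals of C1qc and Cd53 included equality. Values of the 5 genes are given with their roles below. Sfpi1 stood at 0.830 FPKM in the control and 0.598 FPKM in the mutant, on 28 and 22 fragments. That is 1.39-fold lower with a counting interval from 0.792 to 2.63, so a difference in PU.1 mRNA was not detectable at this depth.

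The growth factor CSF1 keeps macrophages alive through its receptor CSF1R. Csf1r (chr18:61105572-61131139, plus strand, GRCm38) stood at 1.92 FPKM in the control library and 0.943 FPKM in the mutant library, 2.04-fold lower with a counting interval of 1.59 to 2.62. The gene for its ligand, Csf1, which mesenchymal and other cells make, stood at 1.26 and 0.888 FPKM, 1.41-fold lower (1.08 to 1.87). The receptor's ratio was thus the lower of the pair, although both intervals reach into the same range. The exons of Csf1r share 873 bases with those of Hmgxb3, which stood at 10.2 FPKM in both libraries, and since strand use is not given in the sources used here, reads over those bases cannot be told apart.

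C1q, the first component of the classical complement pathway, is built from 3 chains whose genes lie side by side on chromosome 4 and are made mainly by macrophages. C1qa (chr4:136895916-136898844, minus strand) stood at 2.76 FPKM in the control and 1.39 FPKM in the mutant, 1.99-fold lower (1.35 to 2.98). C1qc, its neighbour, stood at 3.75 and 2.80 FPKM, 1.34-fold lower (0.979 to 1.80). C1qb stood at 3.82 and 3.47 FPKM, 1.10-fold lower (0.828 to 1.46), close to the median gene. The ratios of the 3 chains differed, but their intervals overlap.

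Fc receptors bind antibody-coated particles, and most signal through small adapter proteins that carry an immunoreceptor tyrosine-based activation motif (ITAM). Both adapters in the list were lower in the mutant library. Tyrobp, the adapter DAP12, stood at 4.31 and 2.49 FPKM, 1.73-fold lower (1.13 to 2.64). Fcer1g, the common gamma chain, stood at 3.37 and 1.37 FPKM, 2.46-fold lower (1.48 to 4.30). Trem2, a lipid-sensing receptor that pairs with DAP12, stood at 0.684 and 0.242 FPKM on 19 and 7 fragments. Fcgr3, a low-affinity IgG receptor that pairs with the gamma chain, stood at 1.64 and 0.797 FPKM, 2.06-fold lower (1.26 to 3.37). The high-affinity receptor Fcgr1 was the exception of the group, at 0.346 and 0.302 FPKM on 17 and 20 fragments. In all, 4 of the 5 genes of this group with at least 20 fragments were at least 1.5-fold lower, against 11.7% of all genes. The group's median log2 ratio was −1.05. The inhibitory receptor Fcgr2b had 5 fragments in each library, too few for a ratio, and it resembles its neighbour Fcgr3 in sequence, so reads may have been split between them.

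Among other surface receptors, Ccr1 and Emr1 were the lowest in the mutant relative to the control. Ccr1, a chemokine receptor of monocytes, stood at 0.513 and 0.160 FPKM on 36 and 12 fragments, 3.20-fold lower (1.65 to 6.86). Emr1, which encodes the macrophage antigen F4/80, stood at 0.515 and 0.263 FPKM, 1.96-fold lower (1.17 to 3.41). The fractalkine receptor gene Cx3cr1, typical of tissue macrophages and microglia, stood at 1.14 and 0.810 FPKM, 1.41-fold lower (1.05 to 1.90). The endotoxin co-receptor Cd14 (0.782 and 0.718 FPKM) and the homotypic receptor Cd84 (0.273 and 0.218 FPKM) lay nearer to equality. Ly86, which encodes the MD-1 protein, was marginally higher in the mutant, at 0.770 and 0.816 FPKM. These last genes had 16 to 31 fragments in a library, which leaves wide intervals.

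By the median log2 FPKM ratio, −0.25, scavenger and uptake genes were the group nearest to the median gene. Without the length trend the medians were −0.130 for this group and −0.128 for the C1q chains. At least 1.5-fold lower was 1 of 4 measured members, against 11.7% of all genes, and 4 genes are too few to set the count apart from that share. That 1 gene was Dab2, an endocytic adapter also expressed outside macrophages, at 16.2 FPKM in the control and 10.2 FPKM in the mutant on 1841 and 1246 fragments. Its ratio was 1.59-fold lower with the narrowest interval of the list, 1.48 to 1.71. Apoe, the lipid carrier, which many cell types express, stood at 22.4 and 19.8 FPKM, 1.14-fold lower (1.02 to 1.27), an interval that holds the median gene. Mrc1, the mannose receptor of resident macrophages, stood at 0.963 and 0.833 FPKM, 1.16-fold lower (0.898 to 1.496). Lgals3, which encodes galectin-3, stood at 0.426 and 0.346 FPKM. Msr1, Timd4 and Gpnmb were below 0.2 FPKM in both libraries, on 5 to 10 fragments each. No fragment was assigned to the scavenger receptor gene Cd163, where 3 fragments would have given 0.0271 FPKM in the control and 0.0249 FPKM in the mutant.

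Lysosomal genes of macrophages differed in direction. Lyz2, which encodes lysozyme M, stood at 2.86 FPKM in the control library and 0.952 FPKM in the mutant library on 73 and 28 fragments, 3.002-fold lower (1.89 to 4.74). Ctss, which encodes the protease cathepsin S, stood at 2.09 and 0.818 FPKM, 2.56-fold lower (1.67 to 4.07). Cd68, a lysosomal membrane glycoprotein widely used to stain macrophages, was the one gene whose interval lay above the median gene. Its level was 1.49 FPKM in the control and 2.21 FPKM in the mutant on 37 and 58 fragments. The mutant level was 1.48 times the control level, with an interval of 0.960 to 2.29 that includes equality. The neighbouring lysozyme gene Lyz1, nearly identical to Lyz2, had 4 and 3 fragments, and reads may have been split between the pair.

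**Figure D2:**
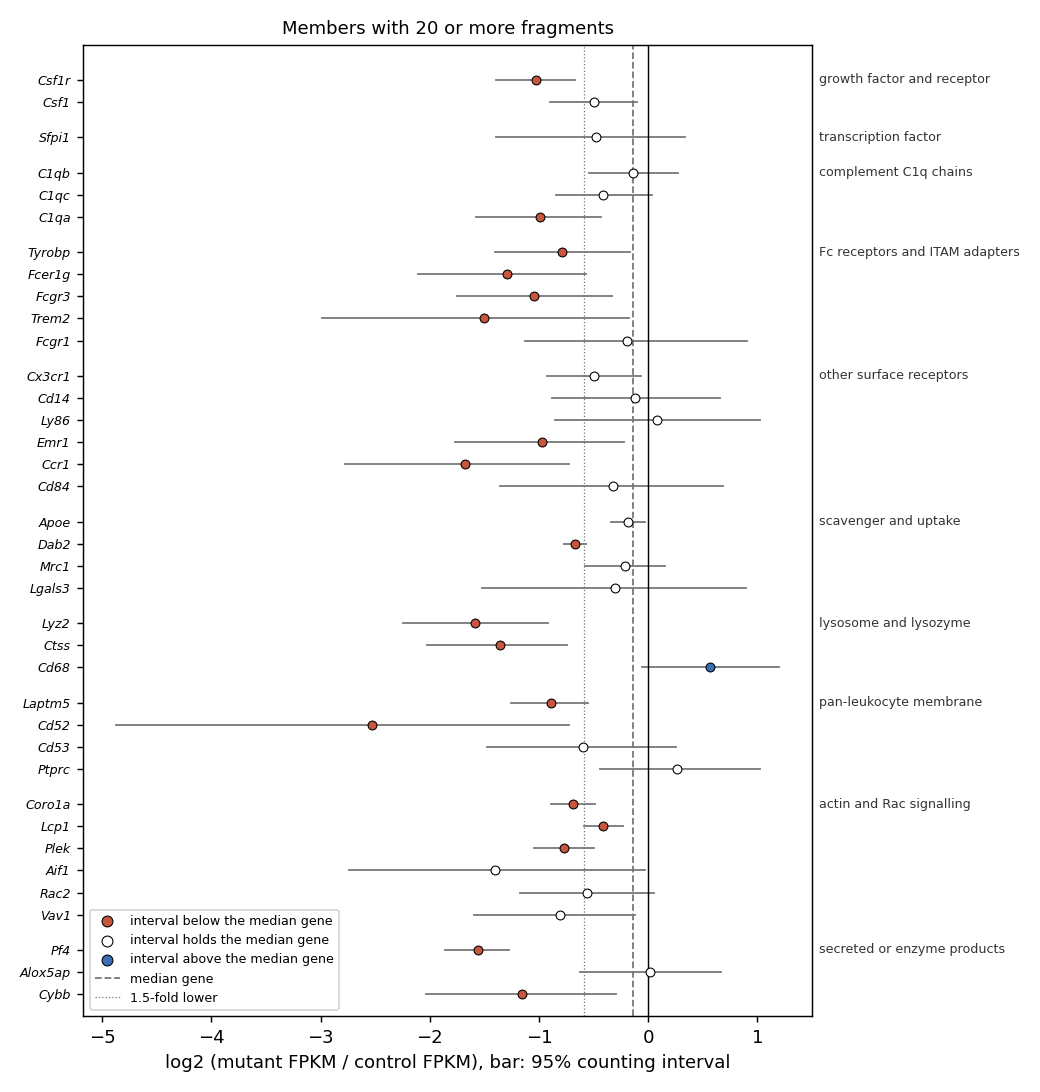
log2 ratio of mutant to control FPKM for the 37 genes with at least 20 fragments, with 95% counting intervals (bars) the median of all genes at −0.14 (dashed) and a 1.5-fold lower level (dotted). Red points have intervals below the median gene, the blue point above it, and white points hold it. Cd52 lies lowest at −2.53 with a wide interval, Cd68 lies highest at 0.57, and 31 of the 37 points lie left of the dashed line.

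Genes of leukocyte membranes in general were also mostly lower. Laptm5, a lysosome-associated membrane protein of blood cells, stood at 3.26 and 1.75 FPKM, 1.86-fold lower (1.47 to 2.38). Cd53, a tetraspanin, stood at 0.416 and 0.274 FPKM, 1.51-fold lower (0.839 to 2.78). Cd52, a small glycoprotein of lymphocytes and myeloid cells, stood at 1.67 and 0.290 FPKM, but on 20 and 3 fragments, which makes its 5.76-fold ratio uncertain (1.65 to 29.2). Ptprc, which encodes the pan-leukocyte phosphatase CD45, went the other way in FPKM, at 0.270 and 0.324, while its fragments did not, at 35 and 33. The difference lay in a transcript of 834 bases, to which 0.123 FPKM was assigned in the mutant library and none to speak of in the control. The 5247-base transcript that took most of the reads had 0.270 FPKM in the control against 0.201 FPKM in the mutant (log2 ratio −0.42).

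Genes that organise the actin cytoskeleton or signal through Rac in blood cells ranged from well covered members to some of the thinnest. Coro1a, the leukocyte coronin, stood at 12.5 FPKM in the control and 7.72 FPKM in the mutant, 1.62-fold lower (1.40 to 1.86). Plek, which encodes the kinase substrate pleckstrin of platelets and leukocytes, stood at 2.68 and 1.57 FPKM, 1.71-fold lower (1.41 to 2.07). Lcp1, the actin bundler L-plastin, stood at 5.90 and 4.43 FPKM, 1.33-fold lower (1.18 to 1.504). These ratios were modest, but the intervals of all 3 lay beyond equality and beyond the median gene. The exchange factor gene Vav1 stood at 0.418 and 0.239 FPKM, 1.75-fold lower (1.09 to 3.01). Its substrate, the blood cell GTPase gene Rac2, stood at 0.757 and 0.512 FPKM, 1.48-fold lower (0.963 to 2.26). Aif1, which encodes the calcium-binding macrophage protein IBA1, stood at 0.914 and 0.346 FPKM on 17 and 8 fragments, 2.64-fold lower (1.02 to 6.67). Of these 6 genes 4 were at least 1.5-fold lower, against 11.7% of all genes. The median log2 ratio of the 6 was −0.73. Exons of Coro1a share 26 bases with Bola2 (97.7 and 86.7 FPKM) and those of Plek share 199 bases with Cnrip1 (3.82 and 2.64 FPKM), so a part of their reads could belong to those neighbours. Cx3cr1, Dab2, Cd52, Lcp1, Alox5ap and Fcgr2b also share exonic bases with another annotated gene, one not found by its symbol in the tables.

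The remaining members are secreted or enzyme products. Pf4, the chemokine platelet factor 4, was the most abundant gene of the list in the control library. Its level was 24.6 FPKM in the control and 8.34 FPKM in the mutant on 368 and 135 fragments, 2.95-fold lower (2.42 to 3.63). Pf4 (chr5:90772435-90773383, plus strand) is best known from megakaryocytes and platelets and is also used as a marker of some embryonic macrophages. Cybb, the catalytic subunit of the phagocyte NADPH oxidase, stood at 0.317 and 0.142 FPKM, 2.23-fold lower (1.23 to 4.11). Alox5ap, which presents arachidonate to 5-lipoxygenase, was level at 1.91 and 1.93 FPKM on 41 and 44 fragments.

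Short transcripts had lower mutant to control ratios than long ones across the whole transcriptome, and the macrophage and leukocyte genes were shorter than most. The Spearman correlation of length with the log2 ratio was 0.311 across genes within this pair of libraries, given as a description since genes are not independent replicates. The median length was 1497 bases for the 37 genes and 2751 bases for all genes. After the trend with length was removed, the median of the 37 genes was −0.45, with 30 of 37 below 0 (50.5% of all genes) and 17 at least 1.5-fold lower (7.89% of all genes). Apoe and C1qb then stood at 0.09 and 0.15 on the log2 scale, Cd68 at 0.86 and Pf4 at −1.25.

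The 37 genes were also read against genes of like length and like level. Between 2500 and 4000 bases, 8 of 8 members lay below the median of that length class, and between 4000 and 6000 bases 7 of 8 did. Among genes of 800 to 1500 bases, which held the most members, 8 of 14 lay below, so the pattern was least plain there. At a mean of 1 to 5 FPKM, 9 of 14 members were at least 1.5-fold lower, against 17.7% of all genes at that level, and at 0.5 to 1 FPKM 2 of 8 were, against 22.6%.

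**Figure D3:**
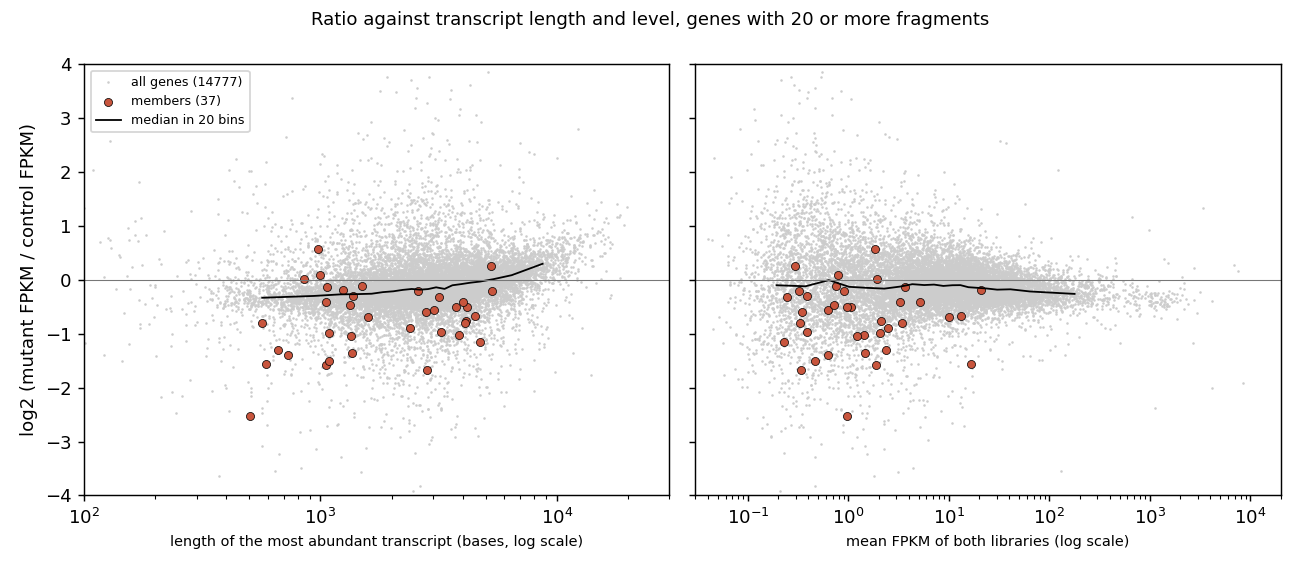
log2 ratio of mutant to control FPKM against the length of the most abundant transcript (left, log axis) and the mean FPKM (right, log axis) for 14777 genes (grey) and the 37 macrophage and leukocyte genes (red), with the median in 20 bins as a line. The line climbs with length; most red points lie under it; 37 genes beyond ±4 and 32 genes with 0 FPKM in one library are not drawn.

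Genes of the same pathways that were not in the list were read the same way. Of 11 measured myeloid transcription factors and growth factor receptors, 6 were at least 1.5-fold lower and none higher, with a median log2 ratio of −0.63. Among all genes 11.7% were lower and 7.18% higher by that measure. Ikzf1, the lymphoid and myeloid factor Ikaros, stood at 1.53 and 0.752 FPKM, and Maf at 2.60 and 1.31 FPKM. Myb, a progenitor factor, was higher in the mutant at 2.62 and 3.47 FPKM. Of 9 kinases and partners that act after ITAM adapters, 5 were lower by that measure and none higher, with a median of −0.76. Syk, the kinase that binds phosphorylated ITAMs, stood at 1.65 and 0.978 FPKM, and Lyn at 2.46 and 1.45 FPKM.

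Of 4 partners of Cybb in the NADPH oxidase, 3 were at least 1.5-fold lower. Cyba, its membrane partner, which many cell types express, stood at 14.2 and 7.36 FPKM. Ncf4, a cytosolic subunit, had the lowest ratio of that list, at 4.08 and 0.465 FPKM on 101 and 14 fragments, 8.77-fold lower (4.93 to 16.4). Ncf1, another cytosolic subunit, stood at 0.658 and 0.565 FPKM, so the subunits did not share one ratio. Of 4 leukocyte integrin genes 2 were at least 1.5-fold lower, against 11.7% of all genes. Itgb2, the common beta chain, stood at 0.466 and 0.103 FPKM, and Itgam, an alpha chain that pairs with it, at 0.201 and 0.0915 FPKM. The integrin gene Itga4, expressed widely in embryos, had 1.93 FPKM in the control against 2.40 FPKM in the mutant; its log2 ratio of 0.31 became −0.053 once the trend with length was removed.

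By their medians, the lists given next lay nearer to the median gene than the macrophage and leukocyte genes did. None of 8 genes for the uptake of apoptotic cells and none of 5 other complement genes was 1.5-fold lower or higher, with medians of −0.21 and −0.20. By that measure 11.7% of all genes were lower and 7.18% higher, so finding none in lists this small is close to those shares. At least 1.5-fold lower were 3 of 7 Toll-like receptors and partners (median −0.48), 2 of 8 haematopoietic actin regulators (−0.34) and 2 of 4 chemokines (−0.42). Of 10 other resident macrophage genes, 1 was at least 1.5-fold lower and 2 were at least 1.5-fold higher, near the shares of all genes for so small a list. The median of that list was −0.28, and −0.054 without the length trend. In that list Mpeg1, which encodes the pore-forming perforin-2, stood at 1.06 and 0.568 FPKM, whereas Tmem119, known from microglia but also from mesenchyme and bone, stood at 33.4 and 25.5 FPKM. The 2 higher genes were Gpr34, a lysophospholipid receptor of microglia, at 0.138 and 0.343 FPKM on 6 and 20 fragments, and Sall1, a zinc-finger factor also expressed in mesenchyme, at 1.08 and 1.88 FPKM; Sall1 is named here after its values were seen.

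Other blood and vessel markers were lower in the mutant library as well, and their part in the values above was not tested. Megakaryocyte and platelet genes were at least 1.5-fold lower in 10 of 10, with a median log2 ratio of −1.20, and the summed level of their 5 markers, Pf4 included, was 39.5 FPKM in the control and 13.7 FPKM in the mutant. Ppbp, another platelet chemokine next to Pf4 in function, stood at 9.21 and 2.74 FPKM. Erythroid genes were at least 1.5-fold lower in 11 of 11 (median −1.42), with summed markers of 20277 and 5286 FPKM. Endothelial genes were at least 1.5-fold lower in 5 of 13 (median −0.58), against 11.7% of all genes. Their summed markers were 50.9 and 33.9 FPKM. The median of the macrophage and leukocyte genes, at −0.67, thus lay between those of the endothelial and megakaryocyte lists. That order depended on transcript length. Without the length trend the medians were −0.447 for the macrophage and leukocyte genes, −0.475 for the endothelial list and −1.02 for the megakaryocyte list.

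Among other white blood cells, the granulocyte markers other than Elane reached levels like those of macrophage markers in the control. Mast cell and lymphocyte markers were mostly at or near 0. The median of the 9 genes of the wider granulocyte list was 0.0727 FPKM in the control, so most of that list also lay near 0. Granulocyte genes were at least 1.5-fold lower in 4 of 4 with at least 20 fragments, against 11.7% of all genes. The 5 granulocyte markers summed to 11.2 and 3.08 FPKM, with Elane at 0 in both libraries. Prtn3, a granule protease, stood at 4.72 and 2.63 FPKM, and S100a9, the partner of S100a8, at 2.19 and 0.125 FPKM on 24 and 2 fragments. S100a8, a calcium-binding protein of neutrophils, stood at 3.22 FPKM on 30 fragments in the control and at 0 in the mutant, where 3 fragments would have given 0.281 FPKM. Mast cell markers were at 0 in both libraries for Cma1, Tpsb2, Mcpt4 and Ms4a2, and lymphocyte markers for Cd3e and Cd3g, with lymphocyte sums of 0.378 and 0.304 FPKM. Acp5, the tartrate-resistant acid phosphatase of osteoclasts, stood at 13.4 and 5.36 FPKM, 2.50-fold lower (2.11 to 2.95), and 2 of 5 osteoclast genes were 1.5-fold lower (median −0.56).

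**Figure D4:**
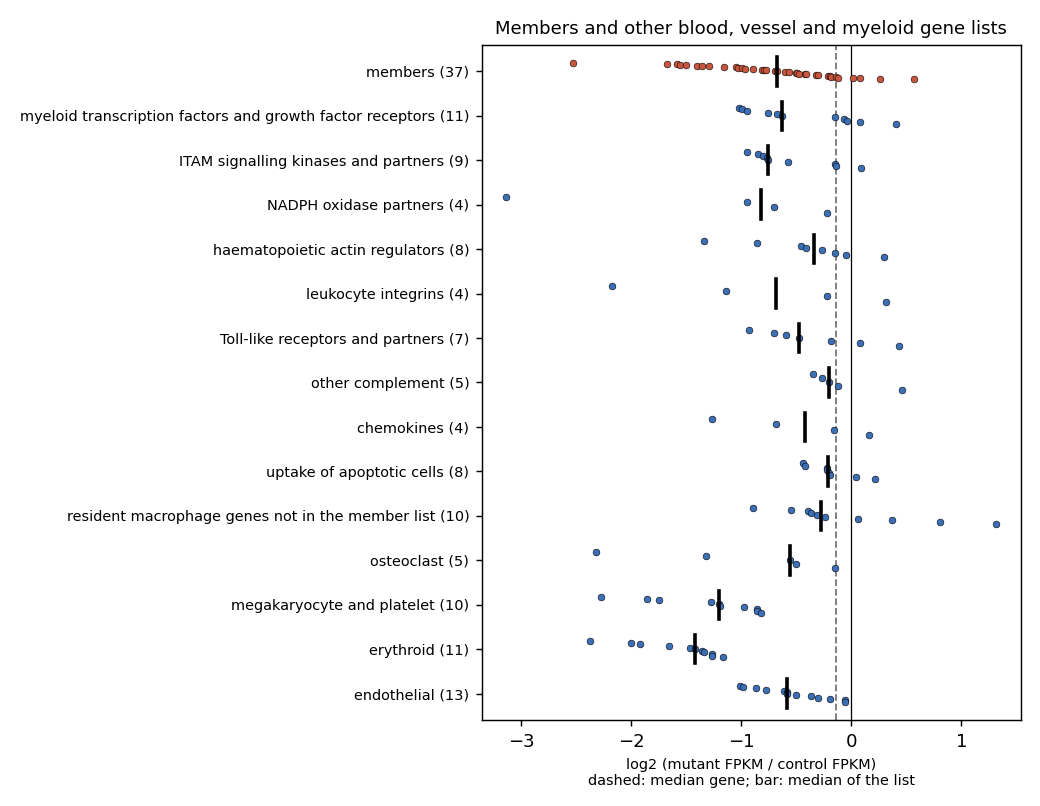
log2 ratio of mutant to control FPKM for each gene with at least 20 fragments in the macrophage and leukocyte list (red) and 14 other lists (blue), with the median of each list (bar) and of all genes (dashed); the granulocyte list, in which S100a8 has no finite ratio, and the mast cell and lymphocyte lists, with 1 measured gene each, are not drawn. Of the medians drawn, the erythroid one lies lowest at −1.42, the macrophage and leukocyte median at −0.67, and the lists for apoptotic cell uptake and other complement lie next to the dashed line.

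Without the 6 members that many other cell types express (Csf1, Dab2, Apoe, Lgals3, Gpnmb and Pf4), 18 of 32 measured genes were at least 1.5-fold lower, against 11.7% of all genes. The median log2 ratio of the 32 was −0.73, against −0.14 for all genes. With the members of fewer than 20 fragments included, the 37 genes left summed to 66.4 FPKM in the control and 42.2 FPKM in the mutant.

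The assignment of reads to alternative transcripts was unstable for several members, which is why levels were summed per gene. Laptm5 shows it: its transcript of 2398 bases stood at 2.92 FPKM in the control and 0.000129 FPKM in the mutant, while that of 2316 bases stood at 0.336 and 1.75 FPKM. Emr1, Cd84 and Plek were likewise split differently in the libraries. No isoform difference is read from these values. In all, 23 of the 43 members have at least 2 transcripts in the tables.

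About 24700000 fragments (control) and 24500000 fragments (mutant) were estimated from the deposited coverage, so 20 fragments is a very small share of either. Kif3a, the targeted gene, stood at 11.46 FPKM in the control library and 5.39 FPKM in the mutant library, in the direction of its label. The table names give e11.5 and run 940 for the control but e11 and run 1093 for the mutant, so genotype, sequencing run and a possible difference in stage cannot be told apart.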

How the data were processed

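RNA from 1 pool of 10 control and 1 pool of 10 Kif3a f/f;Wnt1-Cre mandibular prominences was sequenced, giving 1 library per group. The authors deposited a Cufflinks-style transcript table for each, with FPKM and with coverage, a signal of the mean number of reads over each transcript, per the file headers; tool versions were not given in the sources used here. A genome build, mm9, is named in the submitters' processing notes, but the transcript ends matched GRCm38 (72.1% of 45475 transcripts matched GENCODE M21 at the start or the end), so positions are given on GRCm38 and starts were converted from 0-based to 1-based.

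Lines with displaced fields, 65 of 59120 in each, were left out. FPKM was summed per gene symbol, and ratios were formed for genes with at least 20 fragments; the log2(FPKM + 1) ratio, with a pseudocount of 1, was formed for genes with a mean of at least 1 FPKM. Approximate fragments are coverage times length, divided by the bases that 1 fragment yields (156 in the control, 153 in the mutant). Counting intervals are 95% exact Clopper-Pearson intervals of the mutant share of fragments, scaled to the FPKM ratio; sequenced fragments are not independent molecules. A lowess curve (span 0.3, statsmodels 0.14.6) removed the trend with length. Scripts used Python 3.11.15, pandas 2.3.3, numpy 2.4.6 and scipy 1.17.1 and were tested on simulated data. No p-value was computed, since neither group has replicates.

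All members could be named; from each other list up to 3 genes of the highest level and up to 2 of the largest ratio, beside the fixed cell type markers, genes whose exons overlap a member, and Kif3a. The members and lists were chosen with earlier results of these data known. Alternatives covered the pseudocount, the filters on level and fragments, the scaling, the length trend, the choice of transcript, the status marks of the tables and the set of members. Counting intervals, fragments in place of FPKM, and leaving out members with overlapping exons were added after the data were seen.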

Additional observations from a re-analysis of the deposited data

How the results depend on the processing

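With neither group replicated, depth limits these results: 24 of 43 genes had under 1 FPKM and 6 had under 20 fragments, and no spread between embryos is known. The median log2 FPKM ratio of the 37 genes (−0.67) was −0.53 when centred on the median gene, −0.53 when scaled to the 75th percentile, −0.082 when scaled to a common total, −0.45 without the length trend and −0.55 from fragments. The gap to the median of all genes was −0.53 under every scaling, which cannot change it, and the pseudocount and the FPKM filters do not enter it. It lay between −0.59 and −0.44 over the alternatives that can change it. These were the fragment minimum, the length trend, the choice of transcript, the status marks, fragments in place of FPKM and the sets of members. Scaling to a common total left 8 of 37 genes at least 1.5-fold lower, against 3.28% of all genes, and made 4 at least 1.5-fold higher, against 34.8% (20 and 0 as reported). At least 1.5-fold higher was 1 of 37 after centring (10.1% of all genes), at the 75th percentile (9.96%), without the length trend (8.63%), from the most abundant transcript (8.89%) and from fragments (10.1%). On the log2(FPKM + 1) scale the median (−0.59) was −0.74 with a pseudocount of 0.1, −0.23 with 5, −0.23 with no filter, −0.46 when centred, −0.13 at a common total and −0.38 without the length trend. The median of all genes on that scale was −0.15 with a pseudocount of 0.1, −0.090 with 5, −0.054 with no filter and 0.40 at a common total. The count at least 2-fold lower on that scale (1) was 4 of 19 with a pseudocount of 0.1 (2.55% of all genes), 2 of 42 with no filter (0.919%), 2 of 18 from the most abundant transcript (1.79%), 0 of 19 at a common total (0.628%) and 0 of 15 without the 6 members other cell types express (1.36%). Below the median gene lay 24 of 29 members at a minimum of 50 fragments, 32 of 40 at 10 and 28 of 34 without Csf1r, Coro1a and Plek, and 24 of 29 without any member whose exons overlap another annotated gene. The cause of these moves was not tested. No paired analysis was possible because each group has 1 library.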
